A study of Rattus norvegicus with 44 samples.

Results

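The data described here are the first 3 days after removal of fibroblast growth factor 2 (FGF2) in Ge6, one of 5 rat neural precursor clones profiled on Affymetrix expression arrays. They were chosen by title as the 3 arrays of Ge6 at day 3 and the 3 arrays of Ge6 at day 0, 6 of the 44 arrays of the series. Ge6 is labelled a GABAergic neuronal precursor. The day 3 cultures had been moved to B27 medium without FGF2 and with 0.5% fetal bovine serum, and the day 0 cultures had grown in medium with FGF2, all on poly-lysine and laminin. Withdrawal of FGF2 and addition of serum and B27 therefore came together and cannot be told apart. The other clones are L2.2, labelled an interneuronal precursor, Ctx8 and L2.3, labelled multipotential, and Ge2, labelled nonneuronal. Each was sampled at the same days with 3 arrays, except L2.2 at day 0 with 2. Replicates are sister cultures of 1 clone. Every p-value thus measures the spread between sister cultures, pooled over all clones and days of the series, and not the spread between clones or animals.

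FGF2 binds receptor tyrosine kinases on neural precursors, and the ERK pathway below them switches on transcription factors of the ETS family and its own inhibitors, the Sprouty and dual-specificity phosphatase proteins. Removing FGF2 from cultured precursors is a standard way to let them leave the precursor state. In the ventral forebrain the Dlx homeodomain factors mark the precursors of GABAergic neurons, which make GABA with the glutamate decarboxylases Gad1 and Gad2 and load it into vesicles with the transporter Slc32a1.

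Values are intensities, the brightness of a probe set after the authors' normalization, and changes are differences of log2 intensity with their standard errors (SE), day 3 minus day 0. A gene is said to have risen or fallen where limma's adjusted p, by the Benjamini-Hochberg method over 12749 genes, was below 0.05. Array medians lay between 25.19 and 25.66 at day 3 and between 24.2 and 25.14 at day 0. Correlations over all probe sets were 0.9957 to 0.9969 within a day and 0.9516 to 0.9559 between the days. An intensity of 16.3, the 40th percentile of all values, is used as the dim level, and a fold against a group below it depends on the background of the probe set. The total of 13 pan-neuronal markers was 5720 to 6146 at day 3 and 1639 to 1854 at day 0. The total of 5 measured GABAergic markers was 4959 to 5273 at day 3 and 307 to 342 at day 0. The total of 5 neural precursor markers was 3730 to 4274 at day 3 and 8828 to 9198 at day 0, and all 5 stayed above the dim level on all 6 arrays. Of the 5 GABAergic markers all were above the dim level on every day 3 array, but only 2 on every day 0 array. In cultures measured in bulk, fewer cells of a type and less RNA per cell cannot be told apart.

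By day 3 the genes that make and package GABA were strongly raised in Ge6. Gad1 had the largest rise of all 12749 genes and the cannabinoid receptor Cnr1 the next, and Gad2 and Slc32a1 rose by over 3 on the log2 scale. Of 8 measured genes of GABA synthesis, transport and breakdown, 4 rose, 1 fell and 3 did not pass, with a median change of 0.40 on the log2 scale. Over all 12749 genes 6245 were called, 49%, of which 2605 rose (20.4%) and 3640 fell (28.6%), with a median change of -0.04. At least 2-fold changes were called for 1294 genes (10.1%), 594 higher (4.66%) and 700 lower (5.49%). Called with no overlap between the arrays of the 2 days were 6011 genes (47.1%). All 33 lists below are to be read against these shares.

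Gad1, the main GABA-synthesizing enzyme of the cell body, had intensities of 1673, 1717 and 1733 at day 3, against 13.5, 10.6 and 12.8 at day 0. The day 0 arrays were all below the dim level and the groups did not overlap. The log2 change was 7.12 ± 0.13 (SE, n = 3 each; adjusted p = 9.61e-31), 139-fold. Its other probe set changed by 4.61, so the direction was shared but the size was not.

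The promoter of Gad1, the gene with the largest rise, is shown from the RefSeq table for build GRCr8 (chr3:75777202-75777501, plus strand), 250 bases before to 50 after the gene start. It holds no copy of the E-box CAGCTG, a motif bound by proneural factors, and it was in 0 of the 6 promoters found for members of the GABA list. Of all 33469 promoters there, 15.1% hold it, and of those of 10519 measured genes 16.6% (the motif reads the same on both strands). The promoters printed here and below were chosen after their matches were seen, and a missing match says only that these letters are not in this window.
Gad1: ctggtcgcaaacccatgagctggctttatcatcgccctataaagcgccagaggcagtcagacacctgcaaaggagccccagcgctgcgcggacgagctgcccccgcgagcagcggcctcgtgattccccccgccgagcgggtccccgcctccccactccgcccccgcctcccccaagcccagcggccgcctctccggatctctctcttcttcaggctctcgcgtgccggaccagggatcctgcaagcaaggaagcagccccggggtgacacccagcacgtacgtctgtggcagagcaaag

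Gad2, the decarboxylase of nerve terminals, had 249, 283 and 228 at day 3, against 17.1, 14.4 and 15.1 at day 0. Slc32a1, the vesicular GABA transporter, had 162, 236 and 136 at day 3, against 12, 15.2 and 14.4 at day 0. The day 3 arrays of both genes were far above their day 0 arrays, and Slc32a1 varied more between day 3 cultures. The log2 changes were 4.03 ± 0.11 (adjusted p = 5.17e-26) for Gad2 and 3.65 ± 0.16 (adjusted p = 2.47e-20) for Slc32a1. Abat, which breaks GABA down, rose by 0.76 ± 0.12 and Aldh5a1, the next enzyme of that route, fell by 0.51 ± 0.13 on the log2 scale. The GABA reuptake carriers Slc6a11 and Slc6a13 were dim on both days, with changes of -0.02 and 0.03. Gphn, the gephyrin scaffold of inhibitory synapses, changed by -0.18 (adjusted p = 0.0541), and passed the threshold under 4 of the other ways of processing and without either of 2 arrays.

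Cnr1, the type 1 cannabinoid receptor of many GABAergic terminals, had 798, 859 and 836 at day 3, against 13.1, 12.1 and 12.2 at day 0. Cnr1 had the largest rise after Gad1, 6.06 ± 0.14 on the log2 scale (adjusted p = 1.38e-28), although its other probe set changed by 1.96. Of 8 measured genes for cannabinoid receptors and endocannabinoid enzymes, 2 rose, 1 fell and 5 did not pass (median 0.08). The lipase Abhd6 rose by 0.37 ± 0.10 and Cnrip1, a protein that binds the receptor, fell by 0.35 ± 0.09, and neither call held where a change beyond 1.2-fold was required. The main degrading enzymes Mgll and Faah were dim or near the dim level, with changes of 0.11 and 0.09, and the receptor Cnr2 changed by -0.11.

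**Figure D1:**
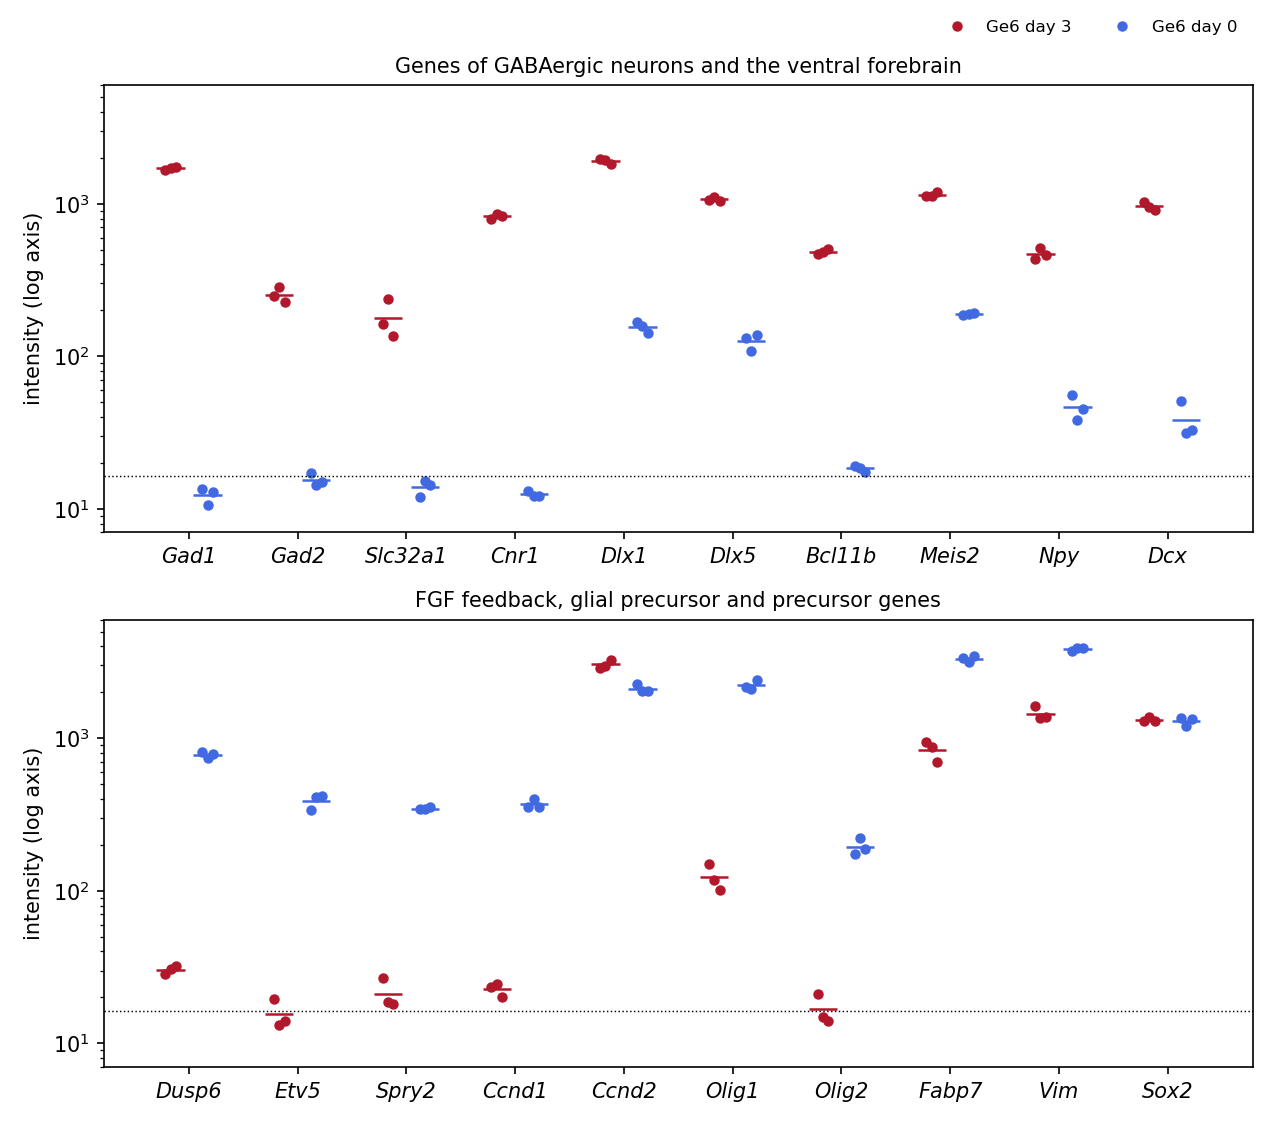
Intensity (log axis) of 20 genes on each Ge6 array, with day 3 in red to the left of day 0 in blue; short lines are the group means (n = 3 arrays) and the dotted line is the dim level of 16.3. Gad1 lies between 1673 and 1733 at day 3 and between 10.6 and 13.5 at day 0, Dusp6 between 28.4 and 31.9 at day 3 and between 739 and 816 at day 0, and the groups overlap for Sox2.

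Most measured factors of the ventral forebrain rose. Of 16 measured Dlx and ventral forebrain transcription factors, 10 rose, 1 fell and 5 did not pass, with a median of 0.74. Dlx1 had 1954, 1934 and 1822 at day 3, against 168, 159 and 142 at day 0. Dlx5 had 1061, 1104 and 1041 at day 3, against 131, 108 and 137 at day 0. Both Dlx genes were already well above the dim level in FGF2, and their groups did not overlap. The changes were 3.61 ± 0.17 (adjusted p = 2.35e-19) and 3.10 ± 0.19 (adjusted p = 4.62e-16) on the log2 scale.

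Pbx3, a homeodomain factor, had 3281, 3514 and 3713 at day 3, against 539, 547 and 472 at day 0. Meis2, a factor of the striatal and lateral ganglionic eminence lineage, had 1119.9, 1116 and 1189 at day 3, against 187, 189 and 193 at day 0. Neither gene had overlapping arrays, and the log2 changes were 2.76 ± 0.07 and 2.59 ± 0.07. Zeb2, needed for migration of cortical interneurons in mice, rose by 2.59 ± 0.20, Zfhx3 by 1.78 ± 0.14, Ebf1 by 0.91 ± 0.16 and Meis1 by 0.58 ± 0.06. Nkx2-1, the factor of the medial ganglionic eminence, had 30.2, 27.2 and 24.0 at day 3, against 11.8, 12.3 and 14 at day 0, so its rise of 1.09 ± 0.09 began below the dim level. The 1 factor of the group that fell was Sox6, which acts in medial ganglionic interneurons: 20.6, 25.4 and 27.8 at day 3, against 74.7, 62.0 and 60.0 at day 0. Its change was -1.42 ± 0.15. Maf, Isl1, Six3 and Prox1 were dim on both days and did not pass, and neither did Foxp1 (-0.05, adjusted p = 0.837).

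Of 12 dorsal and glutamatergic factors, 2 rose, 1 fell and 9 did not pass (median 0.07), and 7 were dim on both days. Among the dim ones were Pax6, Emx1, Emx2, Tbr1, Fezf2 and the vesicular glutamate transporter Slc17a7. Slc17a6, the second vesicular glutamate transporter, rose by 0.98 ± 0.14 to 23.9, 19.4 and 22.1 at day 3, against 11.4, 11.4 and 10.2 at day 0. Lhx2, a cortical selector factor, rose by 0.98 ± 0.09. Otx2, a head and midbrain homeodomain factor, had 48.8, 46.9 and 49.0 at day 3, against 258, 262 and 261 at day 0. Its fall of 2.43 on the log2 scale (SE 0.09, adjusted p = 3.93e-23) came with no overlap of arrays.

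Of 25 proneural and panneuronal transcription factors, 14 rose, 2 fell and 9 did not pass (median 0.63). Bcl11b (Ctip2), a zinc-finger factor of striatal and deep-layer projection neurons, had 468, 483 and 504 at day 3, against 19.2, 18.6 and 17.4 at day 0. It rose by 4.72 ± 0.17 (adjusted p = 8.71e-23), and its other 2 probe sets changed by 2.67 and 4.6. Runx1t1, a neuronal corepressor, rose by 4.71 ± 0.18, the striatal factor Tshz1 by 2.98 ± 0.06, Zfhx4 by 2.84 ± 0.15, Myt1l by 2.59 ± 0.13 and Klf7 by 2.2 ± 0.13. POU factors of neural precursors moved both ways. Pou3f1 had 22.7, 26.6 and 28.8 at day 3, against 247, 226 and 217 at day 0. Pou3f3 had 127, 116 and 111 at day 3, against 547, 536 and 522 at day 0. Their log2 changes were -3.15 ± 0.13 and -2.19 ± 0.07, while Pou3f4, named after its value was seen, rose by 1.83 ± 0.12. Ebf3 changed by -0.23 (adjusted p = 0.378), but its other probe set fell by 1.09, and the gene passed with the mean of both (-0.66) and in a fit of only the groups compared. Neurod2, a glutamatergic factor, was dim.

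Interneuron markers and neuropeptides held a few large rises and many genes that did not pass. Of 21 measured, 8 rose, 1 fell and 12 did not pass (median 0.13). Npy, the peptide of a class of interneurons, had 435, 514 and 462 at day 3, against 55.6, 38.5 and 45.3 at day 0. Tac3, a tachykinin precursor, had 87.7, 82.7 and 61.6 at day 3, against 10.6, 10.4 and 9.89 at day 0. Sstr2, a somatostatin receptor, had 65.4, 78.8 and 81.4 at day 3, against 10.4, 9.09 and 11.1 at day 0. All 3 had separate groups, and they rose by 3.35 ± 0.12, 2.89 ± 0.14 and 2.88 ± 0.15. The peptide receptor Npy1r rose by 1.01 ± 0.10, Cck by 0.95 ± 0.13 and Reln, the secreted protein reelin, by 1.13 ± 0.16. Calb2 (calretinin), a calcium-binding marker of another interneuron class, had 29.6, 20.8 and 22.6 at day 3, against 260, 270 and 270 at day 0. It fell by 3.47 on the log2 scale (SE 0.15, adjusted p = 2.37e-20). Htr3a, Ndnf and Cort, markers of further classes, changed by 0.23, 0.13 and -0.05 and did not pass.

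Most genes of the neuronal cytoskeleton and the growth cone rose. Of 33 neuronal tubulins, stathmins, doublecortin and microtubule proteins, 23 rose, 6 fell and 4 did not pass (median 0.68). Of 29 growth cone and axon growth genes, 20 rose, 3 fell and 6 did not pass (median 0.69). Stmn4, a microtubule-destabilizing stathmin, had 446, 478 and 416 at day 3, against 13.9, 17.2 and 13.6 at day 0. Dcx, which binds microtubules of migrating neurons, had 1033, 956 and 915 at day 3, against 50.8, 31.2 and 32.8 at day 0. Both had no overlap between the days, with changes of 4.91 ± 0.10 and 4.69 ± 0.15, although the other probe set of Dcx changed by 1.09. Stmn3 rose by 4.42 ± 0.16, the neuronal tubulin Tubb3 by 4.20 ± 0.08, Dclk1 by 3.73 ± 0.09 and the axonal protein tau, Mapt, by 3.61 ± 0.14. Other probe sets of Mapt changed by less, 1.71 and 1.49.

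Tubulins did not all move one way. Tubb6, a widely expressed beta tubulin, had 53.0, 53.3 and 49.2 at day 3, against 787, 833 and 901 at day 0, a change of -4.02. Tubb4b fell by 0.82 and Tubb2a by 0.69 on the log2 scale. Nde1, which acts at the spindle of dividing precursors, fell by 1.28. The motor Kif1a had 254, 155 and 200 at day 3, against 92.2, 157 and 117 at day 0, and these groups overlapped (change 0.74 ± 0.46, adjusted p = 0.201). Among growth genes the adhesion molecule Ncam1 rose by 3.88 ± 0.11, the endosomal proteins Nsg1 and Nsg2 by 3.87 ± 0.12 and 3.64 ± 0.11, and Stmn2 by 2.46 ± 0.13. Nrcam, an adhesion molecule of axons, fell by 0.97 on 1 of 3 probe sets and Cotl1, which binds actin, by 0.98. Nefh, the heavy neurofilament, changed by -0.14 (adjusted p = 0.583).

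Of 40 axon guidance ligands and receptors, 20 rose, 6 fell and 14 did not pass (median 0.27). Epha4, an ephrin receptor, had 1133, 1191 and 1099.9 at day 3, against 41.8, 34.8 and 30.7 at day 0, a rise of 5.01 ± 0.14 (adjusted p = 4.70e-26). The Slit receptors Robo2 and Robo1 rose by 2.77 ± 0.13 and 1.59 ± 0.12, the ligand Efnb3 by 2.52 ± 0.15, the semaphorin receptor Plxna2 by 2.15 ± 0.09 and the netrin receptor Unc5b by 1.69 ± 0.14. Other probe sets of Robo2 changed by less, 1.21 and 0.81. The chemokine receptors of migrating interneurons fell. Cxcr4 had 88.7, 88.8 and 76.7 at day 3, against 211, 226 and 189 at day 0. Ackr3 had 40.5, 50.6 and 45.9 at day 3, against 93.9, 77.6 and 79.4 at day 0. Their changes were -1.30 ± 0.09 and -0.87 ± 0.11. Ephb3 fell by 2.2 and Sema3c by 0.95 on the log2 scale.

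RNA-binding proteins showed opposite moves within families. Of 22 measured, 12 rose, 5 fell and 5 did not pass (median 0.36). Ptbp2, the neuronal polypyrimidine tract protein, had 225, 184 and 159 at day 3, against 64.2, 50.8 and 57.0 at day 0. Ptbp1, its counterpart in nonneuronal cells, had 735, 709 and 728 at day 3, against 1322, 1304 and 1392 at day 0. The changes were 1.72 ± 0.10 and -0.89 ± 0.07. In the Hu family the neuronal members Elavl4, Elavl3 and Elavl2 rose by 2.39 ± 0.07, 2.36 ± 0.20 and 1.64 ± 0.13, and the ubiquitous Elavl1 fell by 0.75 on 1 probe set, while its other 2 changed by 0.03 and -0.21 and did not pass. Celf5 and Celf4 rose by 4.55 ± 0.13 and 2.40 ± 0.15, and Celf1 fell by 0.72. The splicing factors Rbfox1 and Nova2 changed by -0.05 and -0.14 and did not pass, but 3 of the 5 other probe sets of Rbfox1 rose, by 1.39, 0.93 and 0.60, so its direction is not settled here.

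Synaptic vesicle and SNARE genes rose in part: 23 of 44 rose, 3 fell and 18 did not pass (median 0.36). The granin Scg3 had 249, 202 and 217 at day 3, against 11.1, 10.7 and 10.7 at day 0, a rise of 4.35 ± 0.11. The vesicle proteins Syt6, Synpr and Chgb rose by 2.40 ± 0.15, 2.3 ± 0.21 and 2.19 ± 0.15, Snap91 by 2.13 ± 0.12 and Rab3a by 1.89 ± 0.14. Syp (synaptophysin), a standard vesicle marker, had 33.0, 34.3 and 30.3 at day 3, against 29.0, 36.0 and 23.9 at day 0, and the groups overlapped (adjusted p = 0.343). Syngr1 fell by 2.03 on the brighter of 2 probe sets, and Sypl1, the form of nonneuronal vesicles, by 1.34 on the log2 scale.

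Of 42 voltage-gated channel genes 14 rose, 2 fell and 26 did not pass (median 0.12). Of the channel genes 25 were dim on both days. Kcnd3, an A-type potassium channel, had 461, 453 and 408 at day 3, against 33.0, 28.5 and 36.3 at day 0 (3.76 ± 0.10). The calcium channel subunits Cacna2d1, Cacnb3, Cacna2d3 and Cacna1c rose by 2.19 ± 0.14, 2.10 ± 0.10, 2.03 ± 0.11 and 1.78 ± 0.17. Of 33 GABA-A, GABA-B and glutamate receptor subunits, 7 rose, 3 fell and 23 did not pass (median 0.03), and 24 were dim on both days. Gabbr1, a subunit of the metabotropic GABA receptor, rose by 2.05 ± 0.12, and its partner Gabbr2 fell by 0.51. Gria2, the AMPA receptor subunit that limits calcium entry, had 128, 123 and 134 at day 3, against 477, 348 and 339 at day 0 (-1.58 ± 0.17).

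**Figure D2:**
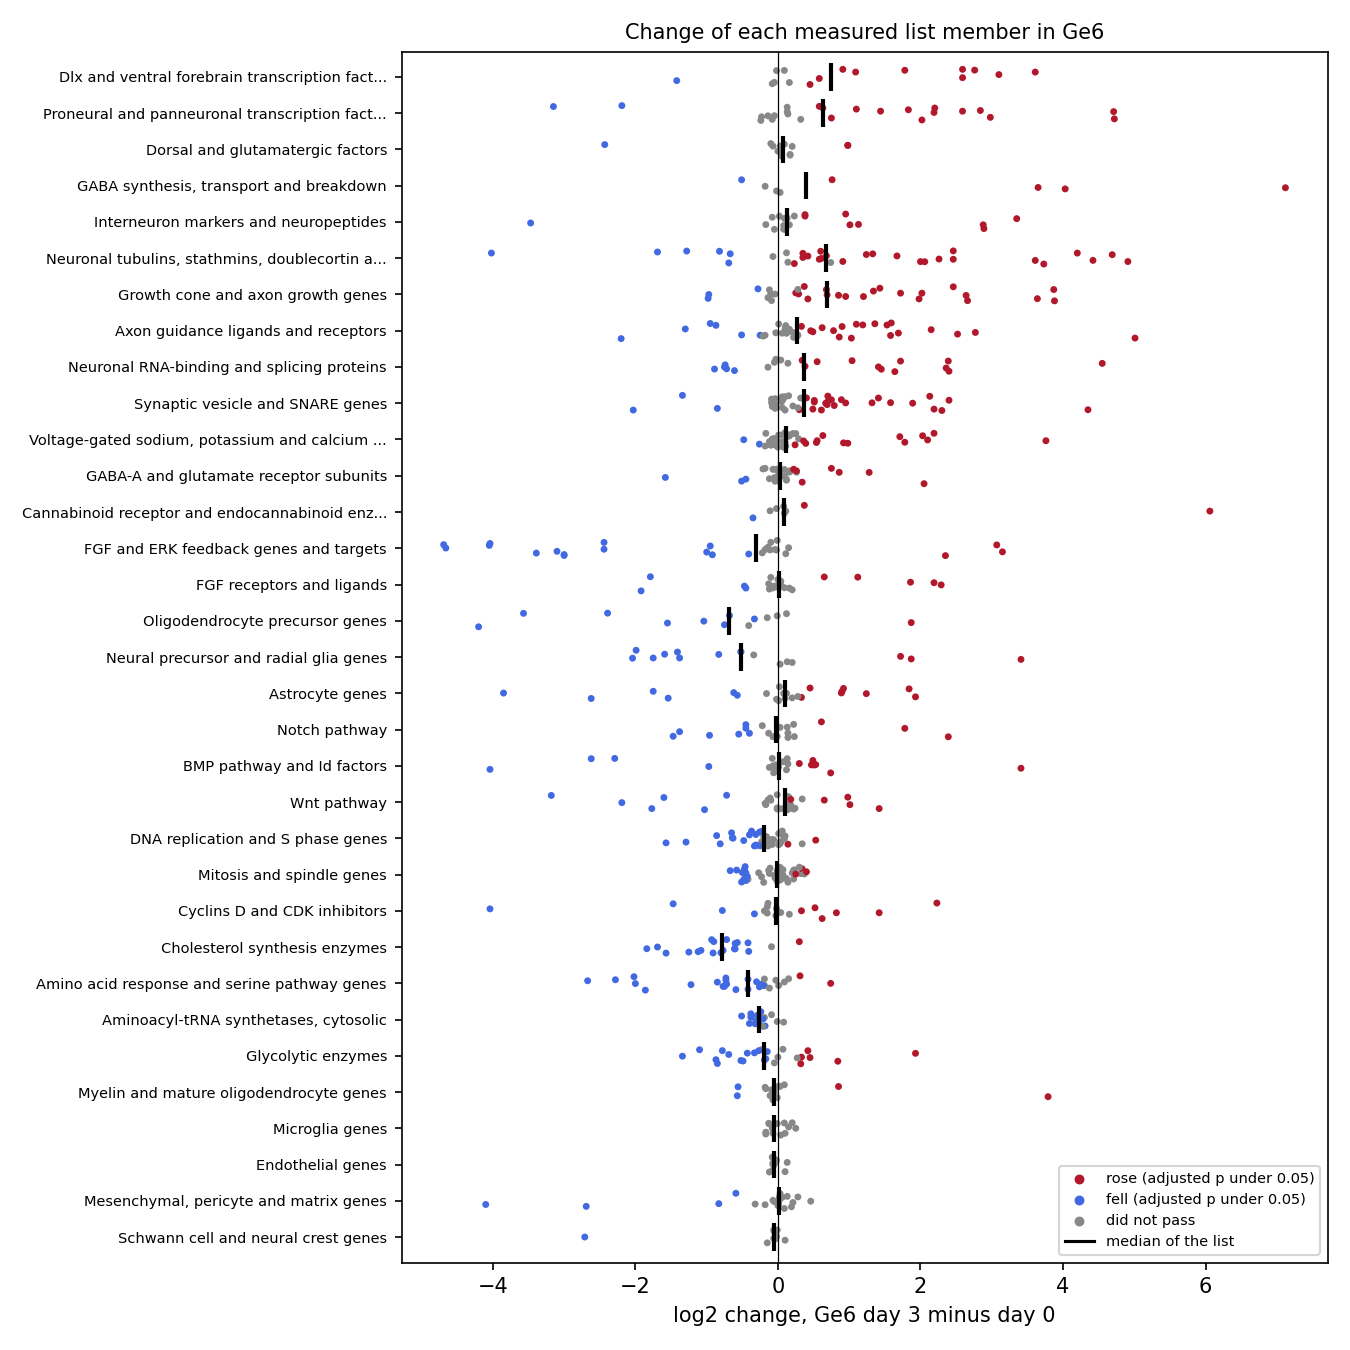
Log2 change of each measured member of the 33 lists in Ge6, day 3 minus day 0; red points rose, blue points fell and grey points did not pass, and black bars are list medians. Medians range from 0.74 for ventral forebrain factors down to -0.78 for cholesterol synthesis, and microglia and endothelial points all lie near 0.

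Several targets and inhibitors of the FGF and ERK pathway fell steeply. Of 28 feedback genes and targets, 14 fell, 3 rose and 11 did not pass, with a median of -0.31. Dusp6, the phosphatase that removes phosphate from ERK, had 28.4, 30.6 and 31.9 at day 3, against 816, 739 and 787 at day 0. Spry2, a Sprouty inhibitor, had 26.8, 18.7 and 18.1 at day 3, against 341, 344 and 352 at day 0. Etv5, an ETS factor, had 19.6, 13.2 and 13.9 at day 3, against 340, 410 and 416 at day 0. The 3 genes were far apart between the days, and they changed by -4.69 ± 0.11 (adjusted p = 4.55e-28), -4.05 ± 0.10 (adjusted p = 1.01e-27) and -4.66 ± 0.15 (adjusted p = 1.71e-24). The other probe set of Dusp6 changed by -3.81, and that of Etv5, which was near the dim level, by -0.70. The ETS factors Etv4 and Ets1 fell by 3.10 and 3.39 on the log2 scale.

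The 3 genes of this list that rose were Etv1, Jun and Dusp1. Etv1, an ETS factor of the same subfamily as Etv4 and Etv5, had 3008, 3456 and 3245 at day 3, against 439, 367 and 356 at day 0. Jun, an AP-1 factor, had 384, 409 and 401 at day 3, against 40.2, 48.9 and 46.1 at day 0. Dusp1, an inducible phosphatase of stress kinases, had 168, 196 and 192 at day 3, against 35.6, 32.0 and 41.7 at day 0. None of the 3 overlapped between days, with rises of 3.07 ± 0.12, 3.15 ± 0.10 and 2.35 ± 0.18. The immediate early genes Fos and Junb were dim and Myc changed by -0.16, and none of the 3 passed. The ETS motif CCGGAAG, searched on both strands, stands in 8.75% of all promoters, in 15.5% of those of measured genes and in 0 of the 19 promoters found for this list.

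FGF receptors and ligands moved both ways: 5 of 24 rose, 4 fell and 15 did not pass (median 0.01). Fgfr1 had 51.7, 61.5 and 59.2 at day 3, against 205, 203 and 245 at day 0. Fgfr2 had 99.2, 90.8 and 98.9 at day 3, against 20.7, 17.9 and 20.7 at day 0. The receptors thus changed in opposite directions, by -1.92 ± 0.12 and 2.29 ± 0.14. Another probe set of Fgfr2 rose by 0.83, and its dimmer ones changed by -0.07, 0.04 and 0.18 and did not pass. Fgfrl1, a receptor without a kinase domain, fell by 1.79, and the membrane protein Flrt3, which binds FGF receptors, rose by 2.19 ± 0.08. The intracellular FGF homologous factors Fgf13 and Fgf12 rose by 1.86 ± 0.11 and 1.12 ± 0.15.

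More genes of glial precursors and of the precursor state fell than rose. Of 13 oligodendrocyte precursor genes, 8 fell, 1 rose and 4 did not pass (median -0.68). Olig1 had 149, 117 and 101 at day 3, against 2166, 2115 and 2397 at day 0. Olig2 had 21.2, 14.8 and 13.9 at day 3, against 175, 222 and 188 at day 0. These basic helix-loop-helix factors of the oligodendrocyte lineage, which ventral precursors also use, fell by 4.20 and 3.57 on the log2 scale (SE 0.16 and 0.18). Ptprz1, a receptor phosphatase, fell by 2.39, the proteoglycan Cspg4 by 1.55 and the growth factor receptor Pdgfra by 0.68. Sox10, which defines the later lineage, was near or below the dim level on both days (14.3, 14.2 and 15.8 at day 3, against 17.0, 16.2 and 15.9 at day 0). The 1 gene that rose was Vcan, a matrix proteoglycan, by 1.87 ± 0.10.

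Of 16 neural precursor and radial glia genes, 9 fell, 3 rose and 4 did not pass (median -0.52). Vim, an intermediate filament, had 1618, 1351 and 1369 at day 3, against 3706, 3881 and 3879 at day 0. Fabp7, a fatty acid binding protein of radial glia, had 947, 880 and 701 at day 3, against 3349, 3148 and 3452 at day 0. Sox2, a factor of neural precursors, had 1306, 1374 and 1289 at day 3, against 1366, 1209.6 and 1328 at day 0. The groups were apart for Vim (-1.41 ± 0.06) and Fabp7 (-1.99 ± 0.08) and overlapped for Sox2 (0.03 ± 0.06, adjusted p = 0.784). Nes fell by 0.52, Prom1 by 0.83, Hes1 by 1.38, Egfr by 1.59, Slc1a3 by 1.75 and Cd9 by 2.04 on the log2 scale, although a dimmer probe set of Slc1a3, a glutamate transporter, rose by 0.61. The rises were Id4 (3.41 ± 0.11), Cdh2 (1.87 ± 0.07) and Lix1 (1.72 ± 0.14). Other probe sets of Id4 changed by less, 2.10, 1.03 and 0.33.

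Within the BMP pathway the Id factors, which block basic helix-loop-helix proteins, diverged. Id3 had 57.2, 61.0 and 40 at day 3, against 301, 347 and 307 at day 0. Id1 had 23.2, 18.0 and 22.9 at day 3, against 101, 108 and 102 at day 0. Id4 had 143, 147 and 162 at day 3, against 15.6, 14.9 and 12.1 at day 0. Id3 and Id1 fell by 2.62 and 2.29 on the log2 scale, while Id4 rose. The ligand Bmp7 fell by 4.04 and the receptor Bmpr1a by 0.97, and over all 23 members 7 rose, 4 fell and 12 did not pass (median 0.01). Of 21 Notch pathway genes 3 rose, 7 fell and 11 did not pass (median -0.03), among them the target Hey1, which rose by 2.39 ± 0.10, and the targets Nrarp and Hes1, which fell by 1.47 and 1.38. Of 31 Wnt pathway genes 5 rose, 6 fell and 20 did not pass (median 0.10). Tcf7l1, a repressor of Wnt targets, fell by 3.18, Sfrp2, a secreted inhibitor, by 2.19 and Lef1 by 1.60, and the ligand Wnt7a rose by 1.42 ± 0.16.

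Few cell cycle genes changed by much at day 3. Of 40 DNA replication and S phase genes, 16 fell, 2 rose and 22 did not pass (median -0.19), and of 42 mitosis and spindle genes, 10 fell, 3 rose and 29 did not pass (median -0.01). Of the mitosis genes 0 passed both the threshold and a 2-fold change, and of the replication genes 2 did, both lower. Pcna, the replication clamp, had 3252, 3135 and 3323 at day 3, against 3298, 3171 and 3017 at day 0. Cdk1, the mitotic kinase, had 1434, 1514 and 1466 at day 3, against 1493, 1494 and 1796 at day 0. Both overlapped between the days, with changes of 0.03 (adjusted p = 0.661) and -0.11 (adjusted p = 0.759). Tk1, thymidine kinase, fell by 1.29 and Orc1, of the origin recognition complex, by 1.57, and these were those 2 genes. Ccna2 fell by 0.67, and E2f1 rose by 0.53 ± 0.13. The rise of Mcm7, 0.14 ± 0.05, no longer passed without either of 2 arrays, with arrays shifted to one median (0.10), with a 1.2-fold minimum or in a fit of only the groups compared.

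The D cyclins, which link growth factors to the cycle, separated. Ccnd1 had 23.4, 24.3 and 20 at day 3, against 352, 401 and 356 at day 0. Ccnd2 had 2905, 2985 and 3244 at day 3, against 2264, 2034 and 2054 at day 0. Ccnd3 had 132, 133 and 129 at day 3, against 219, 242 and 217 at day 0. No D cyclin overlapped between days, and the changes were -4.04 ± 0.15, 0.52 ± 0.11 and -0.78 ± 0.07. Over all 18 members of the list, which holds D cyclins, cyclin-dependent kinases, their inhibitors and other growth-arrest and cycle regulators, 6 rose, 4 fell and 8 did not pass (median -0.03). The inhibitor Cdkn1c (p57) rose by 2.23 ± 0.13 and Cdkn2d by 0.82 ± 0.11, Cdkn1a (p21) fell by 1.47, and Cdkn1b (p27) changed by -0.03 (adjusted p = 0.74).

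Enzymes of cholesterol synthesis fell nearly throughout: 18 of 20 fell, 1 rose and 1 did not pass, with a median of -0.78. Mvd, of the mevalonate route, had 66.7, 61.1 and 77.1 at day 3, against 199, 250 and 213 at day 0. Tm7sf2, a sterol reductase, had 122, 126 and 132 at day 3, against 440, 464 and 456 at day 0. Their groups did not overlap, and the changes were -1.69 ± 0.11 and -1.84 ± 0.12. Hsd17b7 fell by 1.57, Sc5d by 1.25, Mvk by 1.12 and Msmo1 by 1.08 on the log2 scale. The gene that did not pass was Sqle (-0.09, adjusted p = 0.532), and Srebf2, the transcription factor of the pathway, rose by 0.30 ± 0.10, a call lost without 1 of the day 3 arrays or with a 1.2-fold minimum.

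Ebp, a sterol isomerase whose change was -0.60 ± 0.10, was the 1 of 16 promoters found for this list that holds the sterol regulatory motif CACCCCAC, searched on both strands and present in 2.7% of all promoters. Its promoter (RefSeq, GRCr8, chrX:16971212-16971511, plus strand) has the motif in capitals.
Ebp: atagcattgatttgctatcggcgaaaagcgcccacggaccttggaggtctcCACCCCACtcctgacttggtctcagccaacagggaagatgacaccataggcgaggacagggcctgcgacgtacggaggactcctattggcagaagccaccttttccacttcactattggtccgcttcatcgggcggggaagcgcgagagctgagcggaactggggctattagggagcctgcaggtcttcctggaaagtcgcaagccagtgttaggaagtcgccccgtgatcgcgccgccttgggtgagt

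Of 28 amino acid response and serine pathway genes, 19 fell, 2 rose and 7 did not pass (median -0.42). Trib3, a pseudokinase induced by amino acid shortage, had 35.1, 31.1 and 31.1 at day 3, against 236, 182 and 204 at day 0. Nupr1, a stress-induced nuclear protein, had 19.8, 20.4 and 22 at day 3, against 95.4, 57.2 and 104 at day 0. Asns, asparagine synthetase, had 1891, 1821 and 1909 at day 3, against 1759.7, 1830 and 1696 at day 0. The days were apart for Trib3 (-2.67 ± 0.12) and Nupr1 (-2.0 ± 0.13) and overlapped for Asns (0.09 ± 0.09, adjusted p = 0.447). Cebpb fell by 2.28, the glutamine carrier Slc1a5 by 2.02, Vldlr by 1.86 and Ddit3 by 1.22, while the amino acid carrier Slc38a2 rose by 0.74 ± 0.06. Of 18 cytosolic aminoacyl-tRNA synthetases 13 fell, 0 rose and 5 did not pass (median -0.26), the largest fall, of Farsa, being a change of -0.51.

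The amino acid response motif TGATGNAA, searched on both strands, stands in 3.98% of all promoters and in 2.22% of those of 10519 measured genes. It was found in 5 of 23 promoters of this list and in 4 of the 17 whose genes fell, Trib3, Nupr1, Chac1 and Slc38a1, the last 2 of which were named after their values were seen. The promoters of Trib3 (RefSeq, GRCr8, chr3:161275484-161275783, minus strand) and Nupr1 (chr1:190645852-190646151, minus strand) are shown because both genes fell and hold the motif, in capitals as its reverse complement, starting 21 and 55 bases before the gene start.
Trib3: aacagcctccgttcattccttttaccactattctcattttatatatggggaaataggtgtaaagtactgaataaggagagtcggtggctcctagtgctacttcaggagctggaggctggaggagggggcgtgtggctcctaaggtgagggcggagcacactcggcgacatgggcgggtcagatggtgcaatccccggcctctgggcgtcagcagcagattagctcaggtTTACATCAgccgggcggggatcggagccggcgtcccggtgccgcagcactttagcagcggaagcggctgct
Nupr1: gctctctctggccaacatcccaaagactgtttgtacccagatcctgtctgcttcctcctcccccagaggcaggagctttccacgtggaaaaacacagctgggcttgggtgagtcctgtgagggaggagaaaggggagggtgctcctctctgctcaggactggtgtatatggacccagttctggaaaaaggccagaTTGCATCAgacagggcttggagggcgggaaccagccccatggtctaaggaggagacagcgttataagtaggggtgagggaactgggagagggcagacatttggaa

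Of 25 glycolytic genes 14 fell, 6 rose and 5 did not pass (median -0.19). Aldoa, aldolase A, had 1435, 1517 and 1462 at day 3, against 3017, 3179 and 3267 at day 0. Aldoc, the brain form, had 153, 158 and 137 at day 3, against 35.3, 41.0 and 41.4 at day 0. The 2 aldolases thus moved in opposite directions, by -1.10 ± 0.05 and 1.93 ± 0.08. The glucose transporter Slc2a1 fell by 1.34, and the neuronal enolase Eno2 rose by 0.84 ± 0.11.

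Outside the lists the largest fall was that of Metrn, a secreted protein of neural precursors, with 33.9, 20.8 and 23.7 at day 3, against 1014, 1232 and 1142 at day 0 (-5.46 ± 0.13, adjusted p = 3.34e-28). Rassf3 fell by 4.75, the protease inhibitor Serpine2 by 4.22 and Arpc1b, of the actin-branching complex, by 4.08 on the log2 scale. Among the rises outside the lists, Gucy1a1, a subunit of the nitric oxide receptor, had 1015, 1124 and 1034 at day 3, against 25.8, 29.2 and 20.3 at day 0. It rose by 5.41 ± 0.12, the cadherin Cdh11 by 5.12 ± 0.11 and the adhesion protein Negr1 by 4.41 ± 0.13.

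Astrocyte genes did not rise together in Ge6. Of 23 measured, 8 rose, 6 fell and 9 did not pass (median 0.10), and their total was 3425 to 3596 at day 3 and 3994 to 4089 at day 0. Gfap, the astrocyte filament, had 20.9, 14.4 and 13.2 at day 3, against 17.1, 16.3 and 15 at day 0. The groups overlapped near the dim level (-0.02 ± 0.16, adjusted p = 0.939). Aqp4, a water channel, and Apoe, a lipid carrier, rose by 0.92 ± 0.21 and 0.89 ± 0.20, the mean of Aqp4 was below the dim level on both days, and its other 2 probe sets did not pass (-0.12 and 0.04). Sparcl1, a secreted astrocyte protein, had 35.4, 28.3 and 33.6 at day 3, against 492, 451 and 457 at day 0 (-3.85 ± 0.10), and S100b fell by 1.54. Slc1a2, Gjb6, Fgfr3, Cd44 and Kcnj10, named after their values were seen, were below the dim level on all 6 arrays.

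Markers of other cell types were mostly dim. Of 15 myelin genes, 2 rose, 2 fell and 11 did not pass (median -0.05), with totals of 1271 to 1283 at day 3 and 419 to 484 at day 0. Most of the day 3 total was Enpp2 (autotaxin), an enzyme of lipid signalling, with 938, 930 and 967 at day 3, against 76.8, 74.9 and 56.0 at day 0 (3.79 ± 0.22). Mbp rose by 0.85 ± 0.18, while Mog, Mag, Mobp and 6 more were dim on all 6 arrays. Microglia genes (15) and endothelial genes (12) gave 0 calls by limma, with totals of 182 to 200 at day 3 and 178 to 198 at day 0, and of 138 to 145 at day 3 and 142 to 147 at day 0. Of 20 mesenchymal, pericyte and matrix genes 4 fell, 0 rose and 16 did not pass (median 0.01), with totals of 364 to 403 at day 3 and 1233 to 1374 at day 0. The falls were those of the metalloprotease Mmp2, by 4.10, Fbn1, by 2.69, Col5a1, by 0.83, and Fn1, by 0.59, and Col1a1, Col3a1, Dcn and Lum were dim. Of 9 Schwann cell and neural crest genes the membrane protein Pmp22 fell by 2.71, the other 8 did not pass, and the totals were 173 to 183 at day 3 and 622 to 637 at day 0. Of these markers 11 endothelial, 12 microglia, 12 mesenchymal and 7 Schwann cell genes were dim on all 6 arrays, and the part of such cells in any result was not tested.

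To ask which changes differed from those of the other clones, the Ge6 change was compared with the average over the 4 other clones, and with L2.2 alone, each as a contrast of the same fit. The change differed from the mean of the others for 5937 genes (46.6%), 3073 with a higher change in Ge6 (24.1%) and 2864 with a lower one (22.5%). With all arrays shifted to one median the split was 4018 higher and 2347 lower. It differed from that of L2.2 for 4749 genes (37.2%), 2453 higher (19.2%) and 2296 lower (18%), or 3330 higher and 1859 lower with that shift. Differences of at least 2-fold from the others were called for 1328 genes (10.4%; 4.38% higher, 6.03% lower), and from L2.2 for 1154 (9.05%; 3.21% higher, 5.84% lower).

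In the cell cycle lists every member differed from the mean of the others. All 40 replication genes and all 42 mitosis genes had a higher (less negative) change in Ge6 than the mean of the others, with median differences of 1.38 and 1.94. The median change of the mitosis list was -0.01 in Ge6, -0.73 in L2.2, -0.96 in L2.3, -1.96 in Ctx8 and -4.68 in Ge2. Ge6 had the highest change of the 5 clones for 41 of these 42 genes and for 37 of the 40 replication genes. Against L2.2 alone 28 mitosis genes differed, all higher in Ge6, and 14 did not pass (median difference 0.60). Ccnd2 rose in Ge6, against changes of -0.26 in L2.2, -0.93 in Ctx8, -1.74 in L2.3 and -3.06 in Ge2 (difference from their mean 2.02, adjusted p = 1.31e-16).

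Astrocyte genes differed in the other direction, 16 of 23 lower in Ge6, 1 higher and 6 not past the threshold, with a median difference of -1.62. Gfap changed by -0.02 in Ge6, against 4.70 in L2.2, 2.89 in Ctx8, 5.43 in L2.3 and 5.73 in Ge2 (difference -4.71, adjusted p = 7.10e-22). Its day 3 level was 16.2 ± 4.13 in Ge6, against 343 ± 40.6 in L2.2 and 786 ± 10.4 in Ge2 (SD, n = 3 each). Apoe gave 0.89 in Ge6, against 5.30 in Ctx8, 6.60 in L2.3, 5.80 in Ge2 and 0.57 in L2.2, and its difference from L2.2 did not pass (adjusted p = 0.451 by limma). Of 16 precursor genes 11 had a lower change in Ge6 and 2 a higher one (median difference -1.19).

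**Figure D3:**
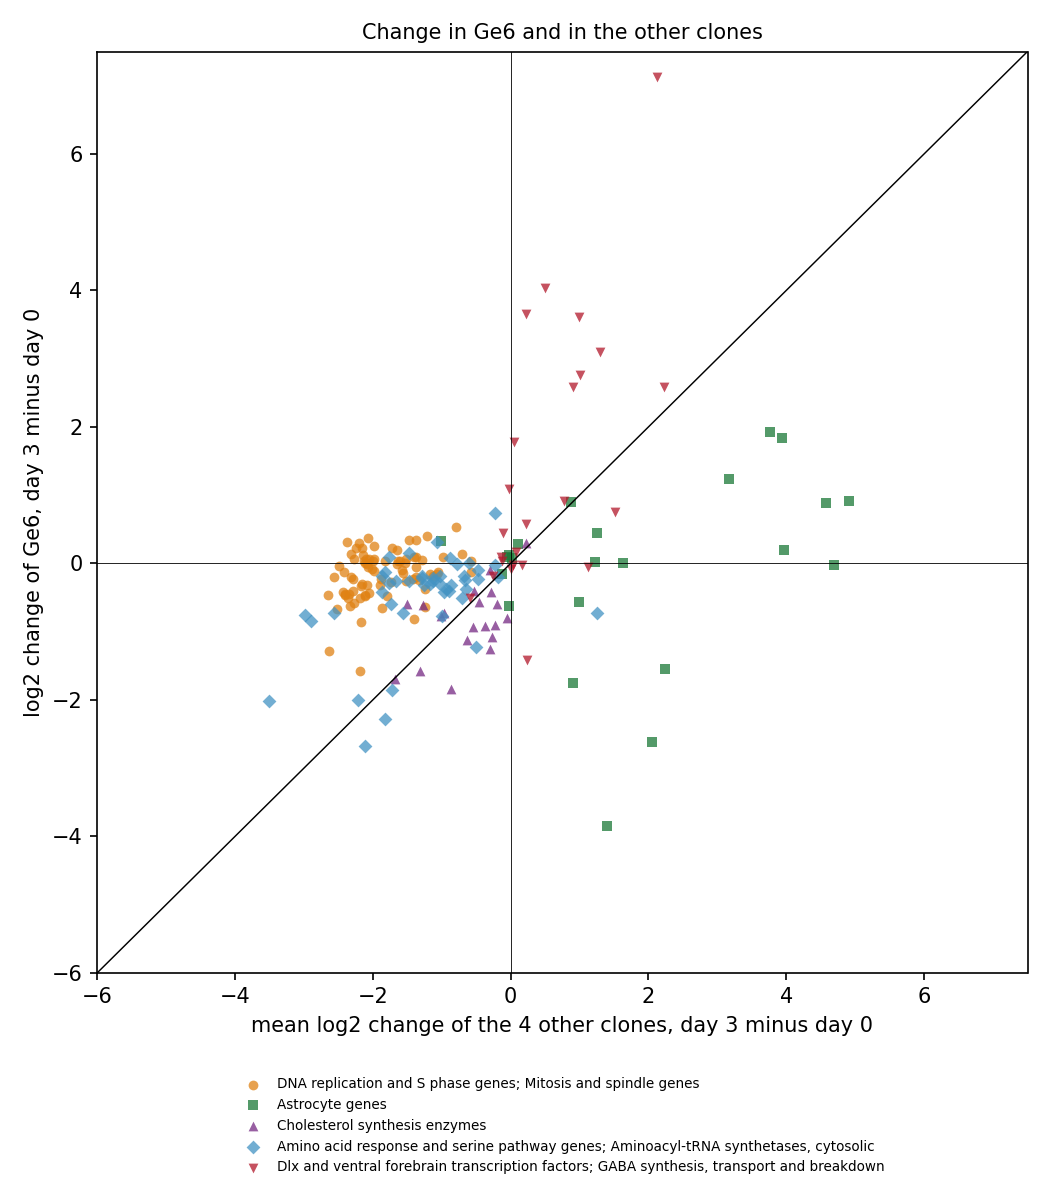
Log2 change of Ge6 (vertical axis) against the mean log2 change of the 4 other clones (horizontal axis), day 3 minus day 0, for the members of 8 lists in 5 colours; the diagonal marks equal change. Replication and mitosis genes (orange) lie above the diagonal, most astrocyte genes (green) below it, and Gad1 is the highest point at 7.12.

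Of 8 GABA genes 3 had a higher change in Ge6, 1 a lower one and 4 did not pass (median difference 0.11). Gad1 changed by 7.12 in Ge6, against 1.26 in L2.2, 1.21 in Ctx8, -0.01 in L2.3 and 6.05 in Ge2, the clone labelled nonneuronal. Its day 3 level was 1708 ± 31.0 in Ge6, against 606 ± 24.9 in Ge2 and 21.8 ± 2.96 in L2.2 (SD, n = 3 each). Gad1 was thus not particular to Ge6, although its change differed from the mean of the others by 4.99 (adjusted p = 6.29e-25). Gad2 and Slc32a1 changed by 4.03 and 3.65 in Ge6, against at most 1.35 (Ge2) and 0.45 (L2.2) elsewhere, with differences of 3.53 and 3.43 from the mean.

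Dlx1 changed by 3.61 in Ge6, against 3.73 in Ctx8, 0.17 in L2.2, 0.08 in L2.3 and -0.01 in Ge2. At day 3 it reached 1903 ± 71.0 in Ge6, against 238 ± 51.4 in Ctx8 (SD, n = 3 each). Dlx5 changed by 3.10 in Ge6, against 3.54 in L2.2, 1.94 in Ctx8, -0.04 in Ge2 and -0.25 in L2.3, and the difference from L2.2 of -0.44 did not pass (adjusted p = 0.259 by limma). Bcl11b changed by 4.72 in Ge6, against -0.85 in L2.2, 0.59 in Ctx8, 0.54 in L2.3 and 0.13 in Ge2. Mef2c, a factor of neuronal maturation, changed by 3.97 in Ge6, against 0.56 at most elsewhere, and the signalling protein Nrg1 and the synaptic adhesion protein Slitrk1 changed by 3.60 and 4.13 in Ge6, against at most 0.28 and 0.86 elsewhere. Calb2 turned the other way, with -3.47 in Ge6, against 4.14 in L2.2 (difference -7.61, adjusted p = 3.96e-24).

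**Figure D4:**
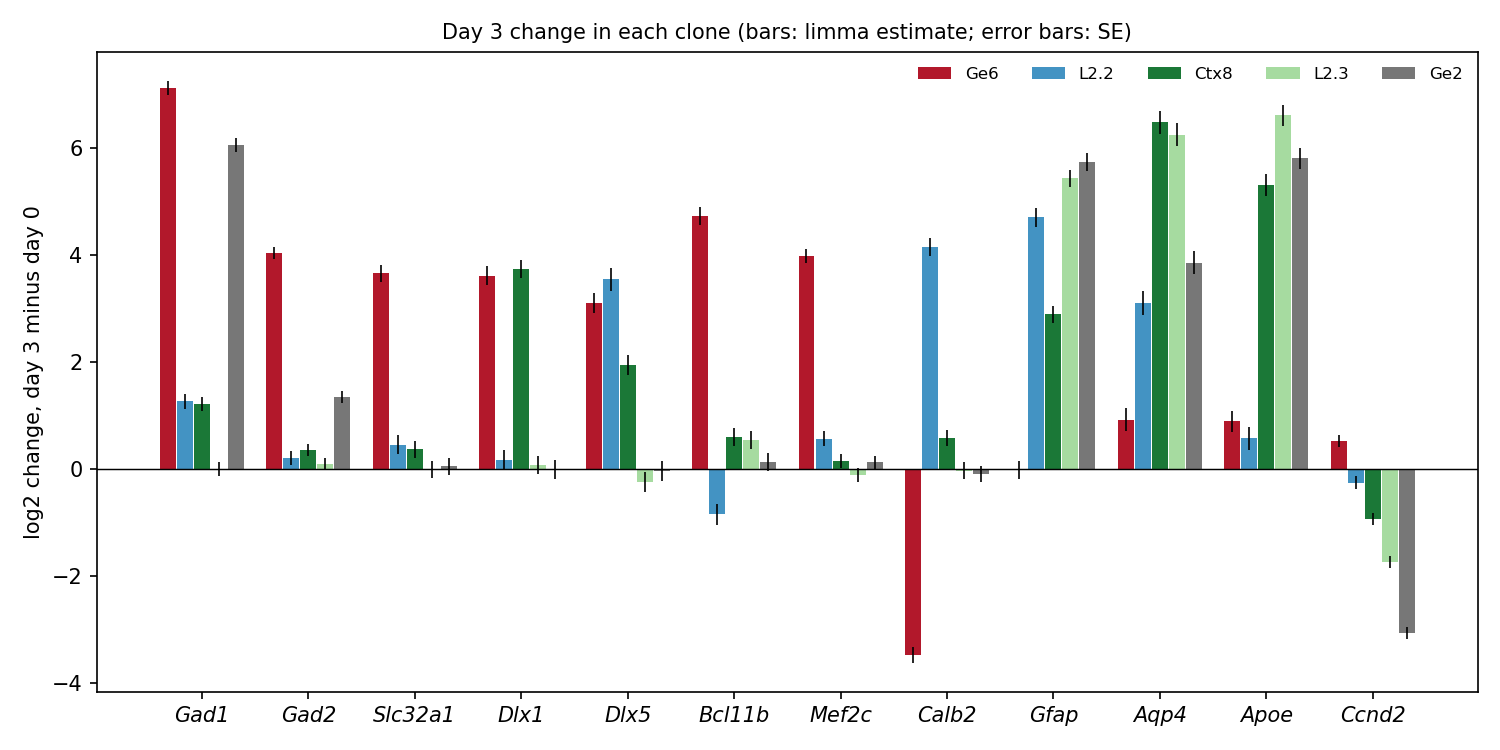
Log2 change between day 3 and day 0 in each clone for 12 genes, with Ge6 in red at the left of each group; bars are limma estimates and error bars their SE. Gad2, Slc32a1, Bcl11b and Mef2c have their tallest bar in Ge6, Gad1 is also tall in Ge2 and Dlx1 in Ctx8, and Gfap has no visible bar in Ge6.

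The differences of Ge6 from L2.2 ran in opposite directions for 2 metabolic lists. For cholesterol synthesis 18 of 20 genes had a lower change in Ge6 than in L2.2, 0 a higher one and 2 did not pass (median difference -1.37), and the list median was -0.78 in Ge6, against 0.55 in L2.2, -0.58 in L2.3, -0.90 in Ctx8 and -1.11 in Ge2. L2.2 was thus the 1 clone with a positive median. For the amino acid response 25 of 28 genes had a higher change in Ge6, 0 a lower one and 3 did not pass (median difference 1.70). The list median was -0.42 in Ge6, against -0.06 in L2.3, -0.48 in Ctx8, -2.25 in L2.2 and -2.46 in Ge2. Asns changed by 0.09 in Ge6, against -2.77 in L2.2, -2.51 in Ge2, -1.63 in Ctx8 and -0.13 in L2.3. All 18 tRNA synthetases had a higher change in Ge6 than the mean of the others (median difference 0.77), with list medians of -0.26 in Ge6, against -0.27 in L2.3, -0.69 in Ctx8, -1.42 in L2.2 and -1.66 in Ge2. For Farsa this call did not hold with quantile normalization (0.19), array weights (0.19), a 1.2-fold minimum (0.20) or without any 1 of several arrays.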

How the data were processed

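Each array measured the RNA of 1 culture. The deposited values are intensities on a linear scale, 1 per probe set and array; per the submitters' processing notes they come from GCOS and RMA, with versions and settings not given in the sources used here. Their log2 was taken with no further normalization. Of 24183 probe sets 17547 had 1 gene in the platform annotation, 213 several and 6423 none. 17450 symbols were updated through RefSeq and 97 kept. The 12749 genes were each represented by the probe set with the highest mean of log2 intensity over the arrays, a choice revisited after counts had been seen, when the linear mean was tried, and then kept; 3498 genes had more than 1 probe set.

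One limma fit (lmFit and eBayes, limma 3.58.1, R 4.3.3) held all 44 arrays in 15 groups of clone and day, with 29 residual degrees of freedom. Its contrasts were Ge6 day 3 minus day 0 and the differences of that change from the average over the 4 other clones and from L2.2. Array number and the residual spread limit the precision. The median residual SD was 0.122 on the log2 scale. On 7 simulated data sets of 12749 genes with 200 changed, the fit for Ge6 day 3 against day 0 recovered 75% to 90% of changes of 0.5 and 99% to 100% of changes of 1 on the log2 scale, and 3.21% to 10.7% of its calls were false (6.78% pooled, above the nominal share). In the data 6245 genes were called, far more than were changed in the simulations, and many changes were larger. The simulated share of false calls is therefore not an estimate for the calls reported here.

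The 33 gene lists and the genes compared were chosen with earlier results of these data known. Named were Dlx1, Dlx5, Gad1, Gad2, Slc32a1 and Cnr1, the 20 largest rises and 20 largest falls with arrays apart, any member of a list with at most 20 measured members, the 6 largest rises, 6 largest falls and 3 brightest other members of longer lists, and the 10 largest differences each way from other clones; exceptions are stated. Of 244 genes named, 198 passed the threshold, with adjusted p of at most 0.0169 by limma (Mcm7), none with overlapping arrays and 44 with a lower mean under the dim level. These counts follow largely from the naming rule, which favours called genes with arrays apart. Over all genes 49% were called and 47.1% were called with no overlap. Of the 153 other probe sets of the named genes 113 gave the same call, 39 differed, mostly dim ones, and 1 was opposite. Same-numbered arrays of the 2 days did not deviate together (correlations of -0.0727, -0.0416 and 0.014), so numbers were not used as pairs. Alternatives were another normalization, a dim filter, other rules for probe sets, array weights, a fold minimum, a pseudocount, a replicate block and leaving out each array. Tables and figures were made with Python 3.11.15, pandas 2.3.3, numpy 2.4.6 and matplotlib 3.10.9.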

Additional observations from a re-analysis of the deposited data

Results flagged for a closer look

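The values in this section are differences of log2 changes, the change of Ge6 minus that of the other clones, each past the threshold of the limma test of the difference. Against the mean of the 4 other clones, the change differed for 5937 genes, and against L2.2 for 4749. Among the 10 largest positive differences from the mean were Gad1 (4.99), Bcl11b (4.62), Rpp25 (4.27), Slitrk1 (3.88), Mef2c (3.79), Tle2 (3.79), Nrg1 (3.66), Nrxn3 (3.59), Gad2 (3.53) and Slc32a1 (3.43). The 10 largest negative ones were those of Sparcl1 (-5.25), Selenop (-5.02), Gfap (-4.71), Tril (-4.67), Id3 (-4.66), Calb2 (-4.62), Gdpd2 (-4.46), Lhfpl6 (-4.07), Aqp4 (-3.99) and Zcchc24 (-3.96).

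Against L2.2 alone, the largest positive differences were those of Gad1 (5.86), Bcl11b (5.57), Ddr2 (5.36), Crabp1 (4.33), Nrg1 (4.24), Ifi27l2b (4.18), Slc7a3 (4.06), Rpp25 (4.04), Unc5b (4.01) and Bcor (3.89). The negative ones were those of Calb2 (-7.61), Sparcl1 (-7.23), S100a10 (-5.50), Pon2 (-5.48), Lxn (-5.23), Rnf180 (-5.02), Gatm (-5.00), Cdh10 (-4.80), Gfap (-4.72) and Gdpd2 (-4.67). L2.2 had 2 arrays at day 0, which limits these values. A positive difference is not always a rise in Ge6: Ifi27l2b changed by -0.40 in Ge6.

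Outside the named genes, 2466 of 6423 probe sets without a gene in the annotation passed in Ge6 at day 3 against day 0 (38.4%), 1678 higher and 788 lower. Over all 24183 probe sets 10537 passed (43.6%), 5230 higher and 5307 lower. The share of probe sets without a gene was thus below that of the whole array, and more of those that passed were higher than lower.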

How the results depend on the processing

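The 6245 genes called in Ge6 became 3537 (1496 higher, 2041 lower) when the test asked for a change beyond 1.2-fold, the 5937 that differed from the mean of the other clones became 3234 (1558 higher, 1676 lower), and the 4749 that differed from L2.2 became 2427 (1139 higher, 1288 lower). With every probe set tested on its own, 10537 of 24183 were called. Leaving out 1 array at a time gave 5854 to 6046 genes in Ge6, 5565 to 5954 against the other clones and 4113 to 4602 against L2.2. With the replicate number as a block 6259 genes were called in Ge6, and the numbers do not pair the arrays. The linear mean in choosing probe sets, tried after counts were seen, gave 6255. The other alternatives stayed within 1.5 times of each count. The median change of all genes was -0.04, and -0.0742 and -0.00815 with arrays shifted to one median and with quantile normalization. Of the 244 genes named, 18 changed their call in Ge6 under at least 1 alternative and 36 their difference from the other clones. The 1.2-fold minimum ended the Ge6 calls of Abhd6, Aldh5a1, Ccna2, Cnrip1, E2f1, Fn1, Gabbr2, Ifi27l2b, Mcm7 and Srebf2, and the mean of probe sets that of Aqp4. Kif1a passed in a fit of only the groups compared, and Pax6, Six3 and Dcn each passed without 1 of the day 3 arrays. Rbfox1 turned to a rise with the mean of its probe sets (0.45) and with the probe set of highest linear mean (1.39), and its difference from the other clones likewise (0.50 and 1.46), since its probe sets disagree. Folds from groups below the dim level of 16.3 depend on probe background, and 3 sister cultures of 1 clone limit what the p-values cover.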
